A study of Mus musculus with 30 samples.

Results

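Satellite cells are the resident stem cells of skeletal muscle, and the arrays described here set satellite cells sorted 84 h after a muscle injury against quiescent satellite cells from uninjured muscle. The activated cells (84 h ASCs) came from hindlimb muscles of C57BL6 wild-type mice injured with BaCl2, a salt that kills muscle fibres, and the quiescent cells (QSCs) came from uninjured hindlimb muscles of mice with the same genotype. The mice of both groups were 2 to 3 months old, and both populations were sorted as VCAM+ cells that were negative for CD31, CD45 and Sca1. Each group had 3 arrays, so 6 of the 30 arrays of the series carry the main comparison. Satellite cells sorted the same way at 36 h and 60 h after injury supply the earlier time points. A second pair of groups, 84 h ASCs and QSCs sorted by YFP from Pax7CreER/+;ROSA26eYFP/+ mice of that age given tamoxifen, repeats the comparison with a genetic label on other arrays. In those mice the label is written in cells in which the Pax7 promoter is active and is then inherited by their progeny, so it follows descent rather than a surface protein. The VCAM sort takes every mononucleated cell with the right surface proteins, and fibres and fused myotubes are lost from it, so cells that had already fused by 84 h are not measured. Whether the arrays of 1 group stand for separate animals is given neither by the labels nor by the methods, so the p-values cover the spread between these samples, which may be technical.

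In uninjured muscle, satellite cells sit under the basal lamina of the fibre, express the paired-box factor Pax7 and do not divide. After injury they enter the cell cycle and expand, and part of the progeny withdraws from the cycle under the myogenic factors MyoD and myogenin, fuses and builds the contractile apparatus, while another part returns to quiescence. Calcitonin receptor signalling, Notch signalling and contact with the basal lamina are known to hold these cells at rest, and BMP signalling is known to keep activated progenitors dividing instead of differentiating.

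All values are log2 RMA intensities from whole-transcript arrays, on which a difference of 1 is a 2-fold difference in signal. A gene was called when its limma p-value, adjusted by Benjamini-Hochberg over the 19938 genes tested, was under 0.05 and its fold was at least 1.5. In 84 h ASCs 3262 genes (16.4% of those tested) were higher than in QSCs and 2232 (11.2%) were lower. Counts of list members between these groups are to be read beside these shares. The 84 h arrays of every called gene lay outside the range of its QSC arrays. Such separation was common: of all 19938 genes, 6396 were higher and 6571 lower on every array. Replicates were tight: the 3 arrays of 84 h ASCs correlated across genes at 0.997 to 0.998, as did those of QSCs (genes are no replicates), and the median residual SD was 0.10. The deposited table has no detection call, and levels under about 6 lie near its low end, where a fold is compressed. In bulk samples fewer cells with a transcript and less transcript per cell cannot be told apart.

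The sorted cells carried the satellite cell programme in both groups. Pax7 measured 9.66, 9.71 and 9.80 in 84 h ASCs, against 11.60, 11.70 and 11.73 in QSCs, a change of −1.95 (adjusted p = 1.1e-19). Myod1, the gene of MyoD, was at 12.06, 11.98 and 12.06 in 84 h ASCs and at 12.10, 12.04 and 12.11 in QSCs, so its groups overlapped and it was not called (−0.05, adjusted p = 0.3). Vcam1 itself averaged 12.17 in 84 h ASCs and 12.85 in QSCs. Of the antigens selected against, Ptprc, the gene of CD45, averaged 8.48 in 84 h ASCs and 6.24 in QSCs, and Pecam1, the gene of CD31, averaged 8.02 in 84 h ASCs and 9.57 in QSCs, both called.

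Markers of other cell types moved with the comparison. All 32 macrophage and monocyte markers were higher in 84 h ASCs, and their summed linear intensity was 16640 to 16998 in 84 h ASCs and 2658 to 2813 in QSCs. Endothelial markers went the other way, with 1 of 16 higher and 13 lower, a summed intensity of 2688 to 2737 in 84 h ASCs and 7971 to 8288 in QSCs, and 9 of 14 pericyte and smooth muscle markers were lower (11565 to 11974 in 84 h ASCs and 22973 to 24008 in QSCs). Of 10 Schwann cell markers 6 fell, with sums of 2429 to 2593 in 84 h ASCs and 6407 to 6705 in QSCs. None of 11 lymphocyte markers was called, and the neutrophil sum was 846 to 898 in 84 h ASCs and 1003 to 1091 in QSCs. The part of these cells in the results below was not tested.

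The gene with the largest rise was Bub1, a kinase of the spindle checkpoint, and the next were Ttn, the giant spring protein of the sarcomere, and Myh3, the embryonic myosin heavy chain. Bub1 was 10.76, 10.73 and 10.70 in 84 h ASCs, against 5.42, 5.43 and 5.53 in QSCs, a 38.6-fold difference (5.27 ± 0.07 SE on the log2 scale, adjusted p = 8e-28). Ttn was 12.07, 12.09 and 12.11 in 84 h ASCs, against 6.88, 6.82 and 6.83 in QSCs (5.24 ± 0.05 SE, adjusted p = 5.7e-30). Myh3 was 11.10, 11.06 and 11.07 in 84 h ASCs, against 6.11, 5.95 and 6.07 in QSCs (5.04 ± 0.08 SE, adjusted p = 3.1e-26). A dividing-cell gene and a pair of sarcomere genes thus led the same ranking, with no overlap between the groups in any of them. The other 9 of the 12 largest rises were Cavin4, Eno3 and Klhl41 of muscle (4.71, 4.51 and 4.40), Shcbp1, Nuf2, Ect2 and Anln of mitosis and cytokinesis (4.61, 4.31, 4.27 and 4.26), and the lysosomal protease gene Ctss and the chemokine gene Ccl3 (4.77 and 4.72), which macrophages express strongly.

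**Figure D1:**
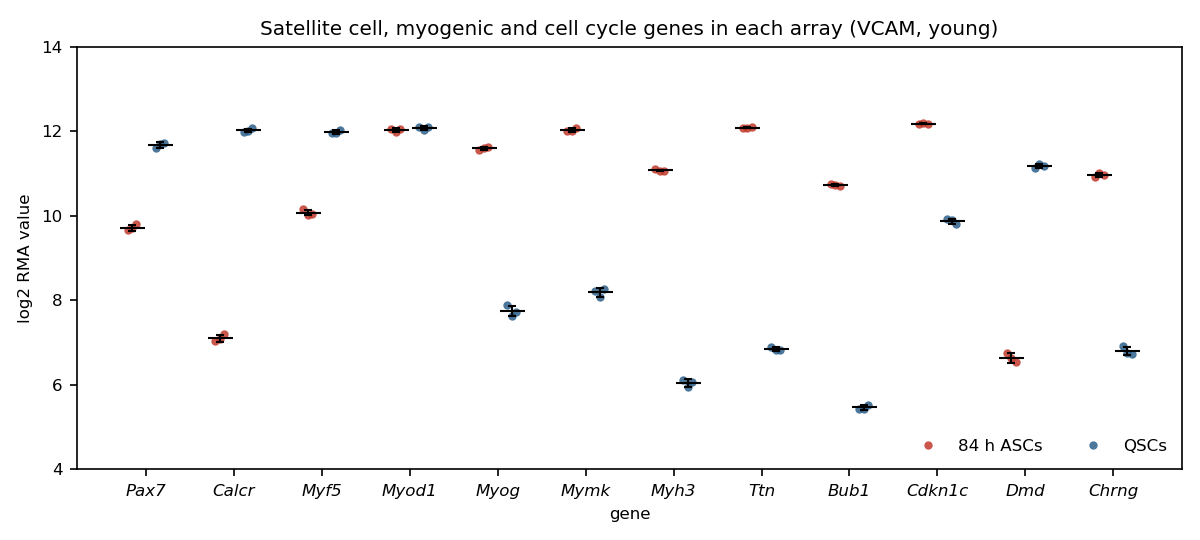
Log2 RMA intensity (vertical axis) of 12 genes on each array, with 84 h ASCs left of QSCs for each gene; points are single arrays and bars are the mean and SD of 3 arrays. Bub1, Ttn, Myh3, Myog, Mymk, Chrng and Cdkn1c stand higher in 84 h ASCs, Pax7, Myf5, Calcr and Dmd stand lower, and the Myod1 arrays overlap.

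Among the 12 largest falls were Chrdl2, Calcr and Dmd. Chrdl2, a secreted BMP antagonist, was 6.84, 6.96 and 7.05 in 84 h ASCs, against 12.22, 12.26 and 12.23 in QSCs, 39.1-fold lower (−5.29, adjusted p = 8e-28). Calcr, the calcitonin receptor, was 7.03, 7.08 and 7.20 in 84 h ASCs, against a mean of 12.03 ± 0.04 (SD) in QSCs, 30.4-fold lower (−4.92 ± 0.09 SE, adjusted p = 2.3e-25). Dmd, the gene of dystrophin, was 6.76, 6.63 and 6.53 in 84 h ASCs, against 11.14, 11.23 and 11.19 in QSCs, 23.4-fold lower (−4.55 ± 0.06 SE, adjusted p = 1.3e-27). For each of these genes the groups lay far apart. At 36 h and 60 h Dmd stood at 8.21 and 6.52, Chrdl2 at 7.93 and 6.68, and Calcr at 8.46 and 6.89. Chodl (−5.16), Hmcn2 (−4.85), Ptprz1 (−4.74), the endothelin gene Edn3 (−4.35), the glucocorticoid-activating enzyme gene Hsd11b1 (−4.32), Erfe (−4.28) and Slc10a6 (−4.28) completed the named falls with the noncoding RNA gene Rian and with 4930578G10Rik. The last is the least even of them, at 5.06, 4.58 and 6.19 in 84 h ASCs, against 9.92, 10.05 and 10.10 in QSCs (−4.75 ± 0.24 SE).

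Among 21 satellite cell markers 14 fell and 2 rose, with a median change of −0.98 against −0.03 over all genes, and 15 of 17 transcription regulators of quiescence fell while none rose (median −1.41). Cd34 averaged 9.41 ± 0.07 in 84 h ASCs and 11.98 ± 0.04 in QSCs (SD, n = 3 each), and the myogenic factor Myf5 fell by 1.91. In the second list Zbtb16 fell by 3.31, Foxo1 by 2.15, Gli2 by 1.82, Nfat5 by 1.70 and Foxo3 by 1.41. Pax3 (−1.56) fell too. Lists of stress genes moved the same way: 24 of 28 immediate early genes fell and none rose (median −1.69), led by Nr4a3 (−3.57) and Maff (−3.51), and 10 of 14 heat shock genes fell, led by Hspb1 (−3.13). The heat shock gene Hspb8 was called higher at the threshold fold (0.58), and not without QSC replicate 1 (0.56) or 84 h replicate 3 (0.56). Of 9 receptors of the G protein-coupled class known from resting cells 6 fell and none rose. Across time the mean over the satellite cell markers stood at 11.38 in QSCs, 10.19 at 36 h, 9.79 at 60 h and 9.99 at 84 h.

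A block of noncoding RNA fell beside them. The Dlk1-Dio3 interval on chromosome 12 (Dlk1 starts at 109452485 and Dio3 ends at 110281097, GRCm38.p6) is imprinted: the maternal copy makes the long RNAs Meg3 and Rian and a large cluster of microRNAs and snoRNAs, and the paternal copy makes the protein genes Dlk1, Rtl1 and Dio3. The genes of this interval, and the other microRNAs below, were picked out after their values were seen, so their counts are a description. Meg3 was 8.68, 8.80 and 8.87 in 84 h ASCs, against 12.85, 12.82 and 12.83 in QSCs, 16.6-fold lower (−4.05 ± 0.07 SE, adjusted p = 2.3e-25). Rian was 7.05, 7.09 and 7.15 in 84 h ASCs, against 11.31, 11.29 and 11.31 in QSCs (−4.21, adjusted p = 1.4e-22). All 40 microRNA genes measured in the interval fell, with a median of −2.13 and a range from −4.13 for Mir380 to −0.59 for Mir666, which lay at the threshold and lost its call without QSC replicate 1 or 84 h replicate 1 or 2 (39 of 40 then). Outside the interval 43 of 257 microRNA genes fell and 4 rose, with a median of −0.15. Mir380 was 4.80, 4.74 and 5.28 in 84 h ASCs, against 9.08, 9.10 and 9.03 in QSCs (−4.13 ± 0.13 SE, adjusted p = 2.7e-20). The array measures the hairpin or its precursor transcript, not the mature product, and it cannot separate these microRNAs from a longer host RNA that contains them. The protein genes of the paternal copy moved little: Rtl1 fell by 0.71, and Dlk1 (−0.48) and Dio3 (−0.43) were not called. The snoRNAs DQ267101 (−3.26) and DQ267102 (−3.08) fell with Rian.

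Mature products of the microRNA genes with large falls are shown next, from RefSeq on GRCm38.p6, 5′ to 3′, with the seed (bases 2 to 8, the stretch that pairs with targets) in capitals. The first 4 come from the chromosome 12 interval and include Mir380, which fell furthest. The next pair comes from hairpins that lie inside the Calcr gene on chromosome 6, on the strand of Calcr.
mmu-miR-380-3p: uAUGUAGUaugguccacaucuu
mmu-miR-300-3p: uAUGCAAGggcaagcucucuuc
mmu-miR-379-3p: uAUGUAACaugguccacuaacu
mmu-miR-411-3p: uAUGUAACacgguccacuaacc
mmu-miR-489-3p: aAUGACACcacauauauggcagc
mmu-miR-653-5p: gUGUUGAAacaaucucuacug
The miR-379 and miR-411 products share a seed.

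The microRNAs inside Calcr went with their host. Mir489, known to hold satellite cells in quiescence, was 4.56, 4.33 and 4.53 in 84 h ASCs, against 7.60, 7.90 and 7.73 in QSCs (−3.27, adjusted p = 5.5e-20). Mir653 was 4.66, 4.61 and 4.41 in 84 h ASCs, against 8.03, 8.23 and 8.29 in QSCs (−3.62, adjusted p = 1.7e-19). Hosts and hairpins did not always move together: Mcm7 of the replicative helicase rose by 2.31 while Mir25, Mir93 and Mir106b inside it were at 0.18, −0.31 and −0.25 and were not called, and Mest rose by 1.53 while Mir335 inside it was at −0.08.

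A second group by seed was the let-7 family, whose members repress growth genes and mark differentiated tissue. Of 10 let-7 and miR-98 genes measured, 7 fell (median −0.73), and Mirlet7g (−0.58), Mirlet7i (−0.57) and Mirlet7f-2 (0.03) were not called. The miR-99 and miR-100 genes, which lie beside let-7 genes in several clusters, were lower too, at −1.89 for Mir100, −1.42 for Mir99a and −0.83 for Mir99b. Mature products of called genes of both families are set out below in the same way, since each family shares 1 seed.
mmu-let-7c-5p: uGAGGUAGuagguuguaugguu
mmu-let-7f-5p: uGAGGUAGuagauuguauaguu
mmu-let-7e-5p: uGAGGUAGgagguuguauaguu
mmu-miR-98-5p: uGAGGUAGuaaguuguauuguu
mmu-miR-100-5p: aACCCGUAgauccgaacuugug
mmu-miR-99a-5p: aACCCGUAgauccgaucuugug
mmu-miR-99b-5p: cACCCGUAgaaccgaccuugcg
The rises were 4 in number. Mir31 was 7.27, 7.25 and 7.36 in 84 h ASCs, against a mean of 5.75 ± 0.30 (SD) in QSCs (1.54, adjusted p = 4.7e-08), and Mir350, Mir3068 and Mir491 rose by 0.75, 0.60 and 0.59, of which the last pair lost the call without QSC replicate 1 or 84 h replicate 2 (Mir3068 at 0.57 and 0.56, Mir491 at 0.56 and 0.54), and Mir491 also without 84 h replicate 3 (0.57). Mir206, the muscle microRNA of regeneration, averaged 3.87 in 84 h ASCs and 3.63 in QSCs, near the low end of the table. In all, 127 of the 297 microRNA genes had a QSC mean under 6.

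**Figure D2:**
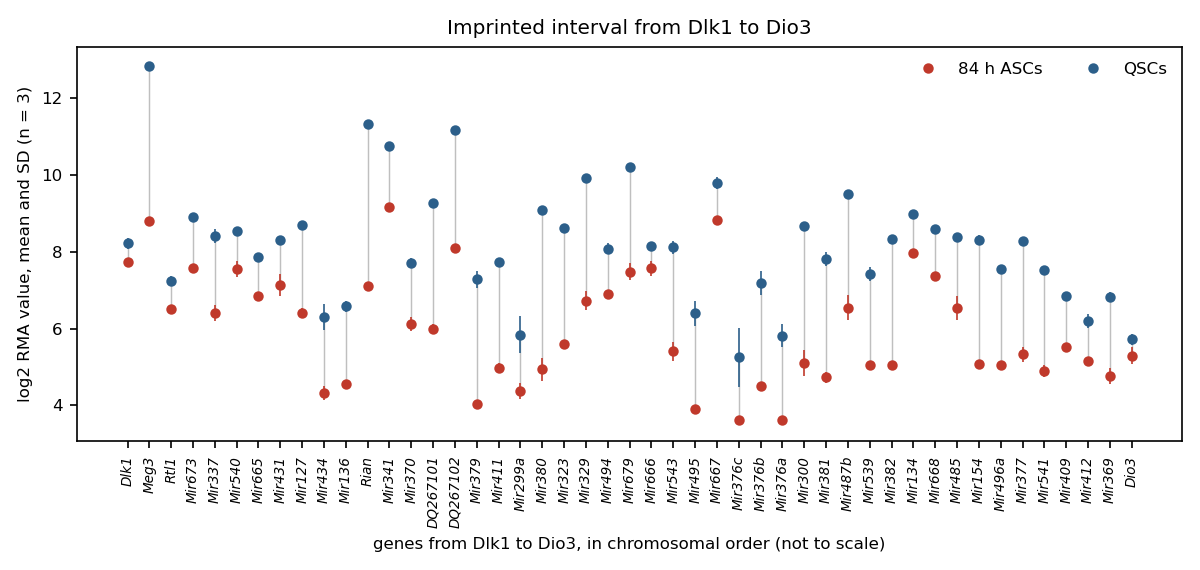
Mean log2 intensity with SD over 3 arrays (vertical axis) of the genes measured between Dlk1 and Dio3, in their order along the chromosome (horizontal axis, not to scale), in 84 h ASCs and QSCs. The maternally expressed RNAs and all 40 microRNA genes lie lower in 84 h ASCs, and Dlk1 and Dio3 at the ends differ least.

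DNA replication and mitosis genes were higher almost without exception. All 48 replication genes rose (median 2.17), as did 50 of 51 genes of mitosis and the spindle (median 3.29), where the securin gene Pttg1 was at −0.58 and was not called, although it was called lower without QSC replicate 2 or 84 h replicate 3 (−0.60 each). Top2a, the topoisomerase of dividing cells, rose by 4.15, E2f8 by 4.21, Rrm2 of nucleotide synthesis by 3.39 and the linker histone gene H1f5 by 4.13. The cyclin A2 gene Ccna2 averaged 11.51 in 84 h ASCs and 7.51 in QSCs. Of 25 DNA damage and repair genes 21 rose, and of 23 replication-dependent histone genes with 1 symbol 14 rose and 2 fell. Histone genes are near-identical copies, so their probe sets may share signal.

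Cycle inhibitors did not move as 1 group. Of 15 such genes 3 rose and 8 fell. Cdkn1c, the inhibitor p57 that marks cells leaving the cycle to differentiate, was 12.16, 12.21 and 12.19 in 84 h ASCs, against 9.92, 9.89 and 9.81 in QSCs, 4.97-fold higher (2.31 ± 0.05 SE, adjusted p = 4.8e-23), while the antiproliferative gene Btg2 averaged 9.54 in 84 h ASCs and 12.65 in QSCs. Gas1, named for growth arrest, was 9.65, 9.68 and 9.64 in 84 h ASCs, against 11.27, 11.34 and 11.31 in QSCs, and Tob1 (−1.32) and Btg1 (−1.13) fell as well. Among 24 genes of G1 cyclins, E2F and pocket proteins 16 rose and 4 fell. The rise of Cdkn1c thus stood beside those of the mitosis genes on the same arrays, and arrays of pooled cells do not say whether single cells hold both.

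Promoters of the cell-cycle lists were searched for letters known from such genes, and the shares differed between lists. The windows searched run from 250 bases before to 50 bases after the RefSeq start on GRCm38.p6, on both strands, and 15563 genes had 1. TTTGAA or TTCGAA, the core of the cell-cycle homology region that the DREAM complex binds, stood in 32 of 42 mitosis windows (76.2%), against 16.8% of all windows. Counted before the start only, it stood in 16 (38.1%), against 15.1% of all genes. In replication windows it stood in 8 of 39 (20.5%), near the share of all windows, and in windows of G1 cyclin and E2F genes in 5 of 16 (31.2%). CCAAT, the box bound by NF-Y, stood in 31 of those 42 (73.8%) and in 25 of 39 replication windows (64.1%), against 38.3% of all windows, but in 5 of 16 G1 cyclin and E2F windows (31.2%). It was not particular to cell-cycle lists, and stood in 15 of 16 windows of cholesterol synthesis and uptake (93.8%). Windows of Ect2, which drives cytokinesis, and Cdk1, the mitotic kinase, are printed as examples: 160 bases before the start, on the strand of the gene, with both motifs in capitals (CCAAT appears as its reverse complement where it lies on the other strand). A match of letters is a description and not a bound site.
Ect2 promoter, chr3:27153879-27154038, minus strand: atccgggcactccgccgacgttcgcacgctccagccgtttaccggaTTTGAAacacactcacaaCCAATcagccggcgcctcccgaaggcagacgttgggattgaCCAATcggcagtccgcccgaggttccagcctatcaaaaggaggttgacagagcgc
Cdk1 promoter, chr10:69352913-69353072, minus strand: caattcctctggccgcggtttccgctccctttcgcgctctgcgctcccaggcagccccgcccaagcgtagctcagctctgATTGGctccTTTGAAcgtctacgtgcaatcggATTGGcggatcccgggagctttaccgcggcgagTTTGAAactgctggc
Ect2 averaged 11.50 in 84 h ASCs and 7.23 in QSCs.

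Differentiation genes rose selectively. Of 23 myogenic regulatory and Mef2 factors 8 rose and 8 fell. Myog, the gene of myogenin, was 11.57, 11.61 and 11.64 in 84 h ASCs, against 7.89, 7.64 and 7.71 in QSCs, 14.5-fold higher (3.86 ± 0.07 SE, adjusted p = 2.3e-25). Smyd1, a methyltransferase needed for sarcomere assembly, rose by 4.12, Tead4 by 1.81, Mef2a by 1.38 and Mef2c by 0.80, and Msc, a repressor of MyoD targets, fell by 2.52. Myf6, the factor of mature fibres, averaged 6.39 in 84 h ASCs and 6.76 in QSCs and was not called.

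Fusion genes were split. Of 34 fusion genes 11 rose and 8 fell, with a median of 0.01. Mymk, the gene of myomaker, the membrane protein that myoblasts need to fuse, averaged 12.03 ± 0.04 in 84 h ASCs, against 8.23, 8.07 and 8.27 in QSCs, 14.3-fold higher (3.84 ± 0.09 SE, adjusted p = 8.3e-23). Its partner Mymx averaged 8.63 in 84 h ASCs and 7.29 in QSCs (1.34). Myof (3.39) and the N-cadherin gene Cdh2 (3.24) rose as well, and these were already at 11.61 and 11.18 at 60 h.

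Sarcomere genes rose in part. In the thick filament and M-band list 13 of 28 rose and 2 fell (median 0.43), and in the thin filament and Z-disc list 24 of 48 rose and 6 fell (median 0.62). The falls of both lists lay near or under the share over all genes (11.2%). Embryonic and cardiac-type isoforms were among them: Tnnt2 averaged 10.99 in 84 h ASCs and 7.02 in QSCs, Actc1 averaged 12.42 in 84 h ASCs and 8.90 in QSCs, and Acta1, the actin of adult fibres, averaged 11.49 in 84 h ASCs and 8.28 in QSCs. Neb, the ruler of the thin filament, rose by 3.58 and the light chain gene Mylpf by 2.96. Adult fast myosins stayed near the low end of the table, with Myh2 at 5.86 in 84 h ASCs and 5.88 in QSCs and Myh4 at 6.02 in 84 h ASCs and 6.03 in QSCs. Mybpc1 (−0.96) and Nebl (−2.08) fell.

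Calcium-handling genes followed with smaller counts: 8 of 28 rose and 3 fell, against 16.4% and 11.2% of all genes. The falls thus lay near the share over all genes. Srl of the sarcoplasmic reticulum rose by 3.04, Casq1 by 1.72, the release channel gene Ryr1 by 1.69 and the pump gene Atp2a1 by 0.90, while Cacna1s, the voltage sensor, was at 0.52 and was not called. Muscle energy metabolism had 13 of 28 genes higher and 4 lower, its falls near the share over all genes too. Eno3, the muscle enolase, was 12.53, 12.51 and 12.57 in 84 h ASCs, against 7.97, 8.05 and 8.07 in QSCs (4.51, adjusted p = 3.3e-28), the creatine kinase gene Ckm rose by 0.88, and Pygm of glycogen breakdown fell by 1.53.

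In the list of the neuromuscular synapse and the dystrophin complex 7 of 25 genes rose and 9 fell. The fetal acetylcholine receptor subunit Chrng was 10.92, 11.02 and 10.97 in 84 h ASCs, against 6.91, 6.76 and 6.72 in QSCs, 18.1-fold higher (4.18 ± 0.07 SE, adjusted p = 1.4e-25). Chrnd (3.54) and Chrna1 (1.48) rose too, and the adult subunit Chrne was at 6.99 in 84 h ASCs and 6.99 in QSCs. Besides Dmd, the falls of the list included the laminin gene Lama2 (−1.80) and, named after their values were seen, the sarcoglycan gene Sgca (−1.12) and the dystroglycan gene Dag1 (−0.90). The gene of the synaptic receptor kinase, Musk, fell by 0.74. Sntb1, a syntrophin, rose by 1.96.

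The E-box CAGCTG, a letter group bound by MyoD and myogenin, stood in 9 of 26 thick filament windows (34.6%), 12 of 37 thin filament windows (32.4%) and 9 of 16 calcium windows (56.2%), against 15.9% of all windows. In windows of the synapse and dystrophin list it stood in 5 of 18 (27.8%), and in those of fusion genes (4 of 23, 17.4%) and myogenic factors (3 of 15) it lay near the share of all windows. A MEF2 motif stood in 7 of the 26 (26.9%) and 5 of the 37 (13.5%), against 2.63% of all windows. The letters CAGCTG read the same on both strands. Windows of Klhl41, an adaptor of the sarcomere, and of Chrng are printed because these were among the largest rises of their lists: 160 bases before the start, with CAGCTG and the MEF2 match in capitals.
Klhl41 promoter, chr2:69669960-69670119, plus strand: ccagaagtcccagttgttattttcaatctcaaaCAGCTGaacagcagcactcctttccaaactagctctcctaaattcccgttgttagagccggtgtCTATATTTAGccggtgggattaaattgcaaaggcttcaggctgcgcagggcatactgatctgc
Chrng promoter, chr1:87205651-87205810, plus strand: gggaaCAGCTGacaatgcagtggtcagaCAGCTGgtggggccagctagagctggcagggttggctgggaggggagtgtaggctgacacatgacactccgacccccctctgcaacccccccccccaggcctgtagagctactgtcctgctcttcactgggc
Klhl41 was 10.61, 10.64 and 10.58 in 84 h ASCs, against 6.36, 6.11 and 6.16 in QSCs (4.40, adjusted p = 2.4e-23).

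**Figure D3:**
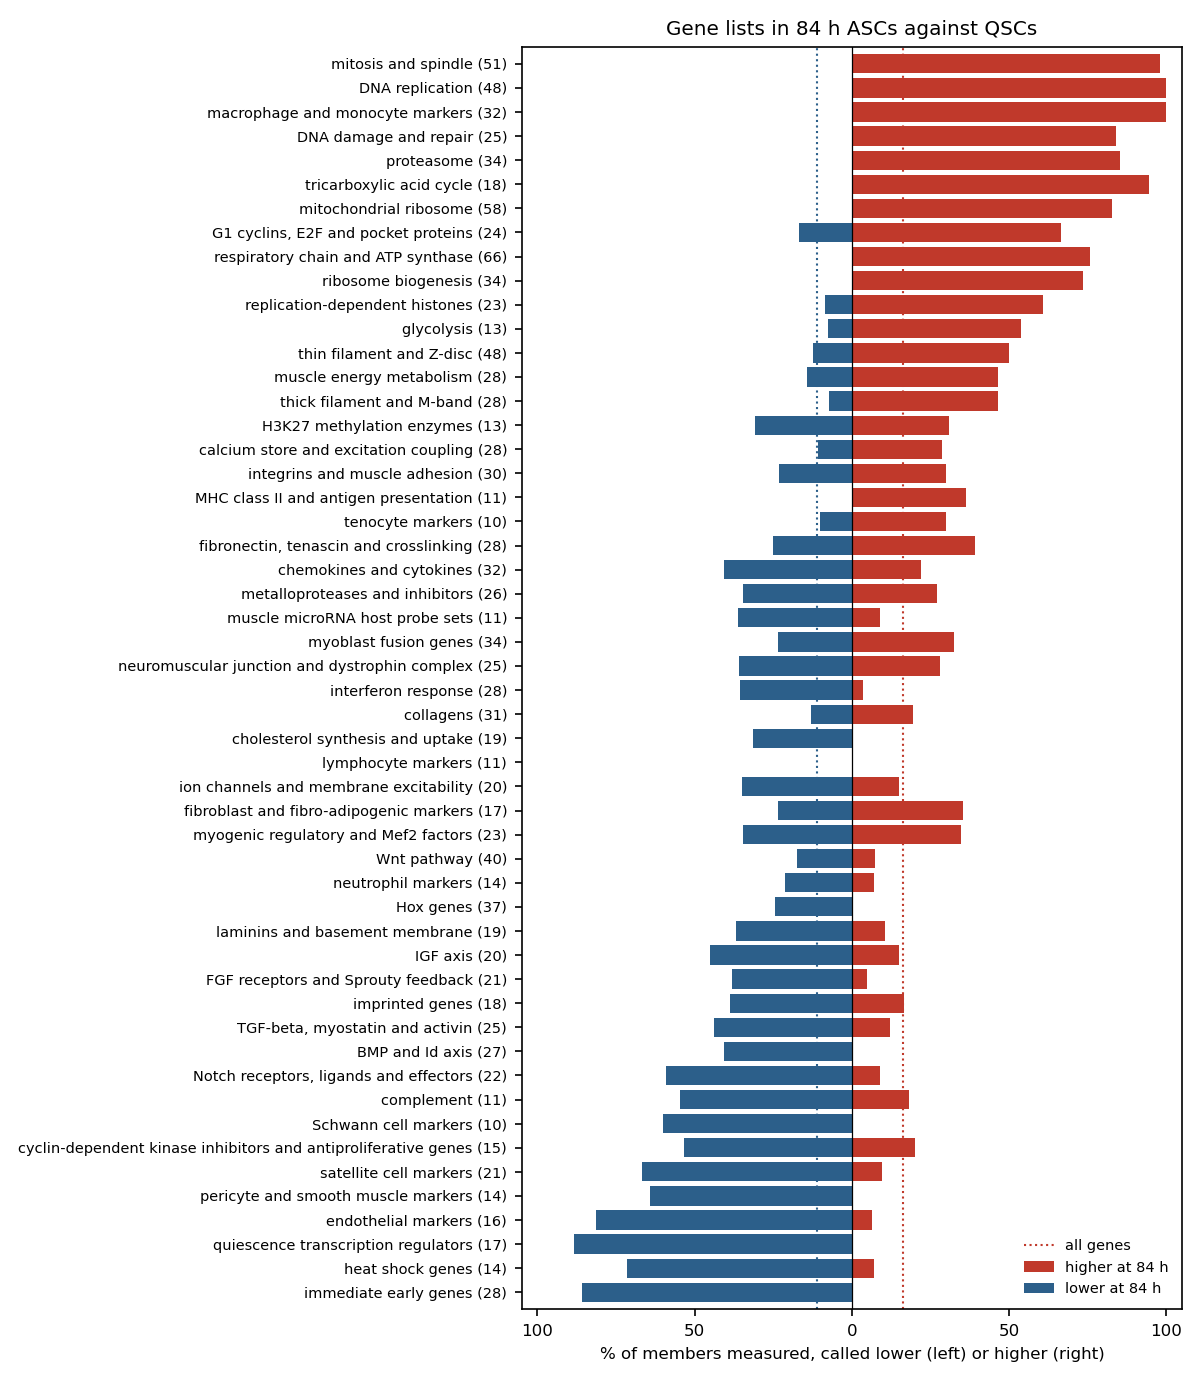
Percent of the measured genes of each list called lower (left) and higher (right) in 84 h ASCs than in QSCs, for lists of at least 10 genes ordered by median change; dotted lines mark the same percents over all 19938 genes (11.2 and 16.4). Mitosis, replication and macrophage lists lie at one end and immediate early and quiescence lists at the other.

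Mitochondrial and protein turnover genes were higher as groups. Of 66 genes of the respiratory chain and ATP synthase 50 rose and none fell (median 1.01), of 18 tricarboxylic acid cycle genes 17 rose (median 1.09), and of 58 genes of the mitochondrial ribosome 48 rose and none fell (median 1.06). Idh3a of the cycle averaged 12.38 ± 0.02 in 84 h ASCs and 10.16 ± 0.06 in QSCs, and Uqcrc1 of complex III averaged 11.99 ± 0.04 in 84 h ASCs and 9.76 ± 0.08 in QSCs (SD, n = 3 each). Glycolysis had 7 of 13 genes higher and 1 lower: Pgam1 (2.23), Tpi1 (2.20), Pgk1 (2.13) and the lactate dehydrogenase gene Ldha (1.60) rose, and Pfkfb3 (−0.62), which makes an activator of the pathway, fell. Of 34 proteasome genes 29 rose (Psmc1 by 2.00) and of 34 ribosome biogenesis genes 25 rose (Wdr12 by 1.72), with none lower in either. Cholesterol synthesis differed: none of 19 rose and 6 fell, led by Insig1 (−1.74). None of the respiratory chain, cycle, mitochondrial ribosome, proteasome and biogenesis genes was called between 84 h and 60 h. Every ribosome biogenesis gene was lower at 84 h than at 60 h, from −0.57 for Nolc1 to −0.12 for Polr1c, short of the fold threshold. All of them but Npm1 (−0.17, adjusted p = 0.13) had an adjusted limma p under 0.05.

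Lists of signalling genes that act on satellite cells had more genes lower than higher, and outside the Notch list most genes were not called lower. Of 22 Notch genes 13 fell and 2 rose (median −0.68): Jag1 (−1.71), Notch3 (−1.79), Hey1 (−1.75), Heyl (−1.65) and Hey2 (−1.42) fell, and Hes6, which opposes the Notch effector Hes1, rose by 1.55. Vascular and mural cells also express several Notch genes, and most of their markers fell in the same comparison: the endothelial sum was 2688 to 2737 in 84 h ASCs and 7971 to 8288 in QSCs, the pericyte sum was 11565 to 11974 in 84 h ASCs and 22973 to 24008 in QSCs, and their part in the Notch values was not tested. In the BMP and Id list 11 of 27 fell and none rose. Bmp4 was 6.80, 7.08 and 6.71 in 84 h ASCs, against 11.07, 11.10 and 11.01 in QSCs (−4.20, adjusted p = 4.1e-25), and Bmp6 fell by 3.24. The TGF-beta list had 11 of 25 lower and 3 higher, with the coreceptor gene Tgfbr3 at −3.54 and the ligand gene Tgfb1 at 1.25. For FGF the counts were 8 lower and 1 higher of 21, with the feedback inhibitor gene Spry1 at −2.83. The IGF list had 9 of 20 lower and 3 higher, with Irs2 at −2.30 and the binding protein gene Igfbp2 at 2.23. The Wnt list had 7 of 40 lower and 3 higher, with Sfrp2 at 1.88 and Lgr5 at 1.48 among the rises. Over all genes 16.4% were higher and 11.2% lower. The rises of the TGF-beta and IGF lists lay near the first share, and those of the BMP, FGF and Wnt lists lay under it. The falls of these lists lay above the second share, those of the Wnt list closest to it. Of 13 genes for enzymes that write or erase H3K27 methylation 4 rose and 4 fell, with the writer Ezh2 at 11.15 in 84 h ASCs and 9.83 in QSCs and the eraser Kdm6b at 9.95 in 84 h ASCs and 11.64 in QSCs.

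Matrix lists had calls in both directions. Collagens had 6 of 31 higher and 4 lower, near the shares over all genes (16.4% and 11.2%), laminins and basement membrane genes 2 of 19 higher and 7 lower, and fibronectin, tenascin and crosslinking genes 11 of 28 higher and 7 lower. Has2, which makes hyaluronan, was 11.10, 11.04 and 11.13 in 84 h ASCs, against 7.24, 7.49 and 7.71 in QSCs (3.61), and the proteoglycan gene Vcan (3.41), Postn (2.43), the collagenase gene Mmp13 (3.16) and Col1a2 (1.35) rose. Of 26 metalloproteases and inhibitors 7 rose and 9 fell, with the inhibitor gene Timp1 at 2.30 and Timp3 at −2.07, and with Adamts1 (−2.63), Adamts5 (−2.11) and Mmp2 (−1.86) among the falls. On the other side, Tnxb was 7.05, 7.16 and 7.04 in 84 h ASCs, against 11.15, 11.31 and 11.31 in QSCs (−4.17), and Lama3 (−3.40), Col15a1 (−3.02) and Col4a1 (−2.13) fell. Frem1 of the basement membrane averaged 6.54 in 84 h ASCs and 10.54 in QSCs. Of 17 fibroblast markers 6 rose and 4 fell, with Dpt at −3.77, and the summed intensity was 32116 to 33067 in 84 h ASCs and 35541 to 36218 in QSCs. Endothelial markers, with 13 of 16 lower, and pericyte markers, with 9 of 14 lower, moved with the falls of Col4a1 and Col15a1, which vessels also express. The part of these cells and of fibroblasts in the matrix values was not tested.

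Inflammatory genes were mixed. Of 32 chemokines and cytokines 7 rose and 13 fell, with Ccl3 at 4.72 and Ccl19 at −3.34. Of 28 interferon response genes 1 rose and 10 fell, of 11 complement genes 2 rose and 6 fell (C3ar1 at 3.58 and Serping1 at −3.01), and of 11 class II genes 4 rose. Over all genes 16.4% rose and 11.2% fell, so the rises of the complement and chemokine lists lay near the share over all genes. Macrophage defining genes were well above the low end of the table at 84 h: Lyz2 was 11.25, 11.25 and 11.26 in 84 h ASCs, against 6.85, 7.37 and 7.04 in QSCs (4.17). Vascular genes fell, with Tek at 7.96 in 84 h ASCs and 10.89 in QSCs and Rgs5 of pericytes at 8.35 in 84 h ASCs and 11.92 in QSCs.

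Setting 84 h ASCs against 60 h ASCs gives the last step. There 642 genes (3.22%) were higher at 84 h and 146 (0.732%) lower, 3.95% in all, and the 84 h arrays are those of the comparison above. In the differentiation lists 14 of 28 thick filament, 23 of 48 thin filament, 13 of 28 calcium, 8 of 25 synapse and dystrophin and 7 of 34 fusion genes were higher, and none of these genes was lower. Across QSCs, 36 h, 60 h and 84 h, Myog averaged 7.75, 8.27, 9.11 and 11.59, and the last step was 2.50 (adjusted p = 5.8e-20). Cdkn1c averaged 10.15 at 60 h, and its last step of 2.03 (adjusted p = 4e-20) made up most of its rise. The fusion gene Mymk and the myosin gene Myh3 stood at 9.59 and 7.84 at 60 h, whereas Ttn and Chrng were already at 10.94 and 9.53 and Eno3 at 12.46. Tnni1 (2.55), Actc1 (2.49), Neb (2.26), Acta1 (2.23) and the prostaglandin dehydrogenase gene Hpgd (2.82) were also among the 10 largest rises of the step. These genes had thus covered unlike parts of their rise by 60 h.

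Some cell-cycle genes were past their highest level. Between 84 h and 60 h 7 of 48 replication genes, 8 of 25 repair genes and 2 of 51 mitosis genes were lower and none was higher, with medians of −0.42, −0.43 and −0.28. Ccne2 (−1.03) and Orc1 (−1.11), which act at the start of replication, were among the falls, and so were the endothelial marker Esm1 (−1.58), the cytokine gene Csf1 (−1.03) and Idi1 of cholesterol synthesis (−1.02). Each of these but Csf1 and Idi1 was still higher at 84 h than in QSCs. Over QSCs, 36 h, 60 h and 84 h the mean of the replication list was 7.74, 9.75, 10.29 and 9.86, and that of the mitosis list 6.87, 9.46, 10.36 and 10.10. Macrophage markers moved over the same interval, with 22 of 32 higher at 84 h than at 60 h and a summed intensity of 29705 to 31364 at 36 h, 7877 to 8445 at 60 h and 16640 to 16998 at 84 h. Their part in the step was not tested.

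Some genes had dipped by 60 h and were back near the quiescent level at 84 h, which the comparison with QSCs alone hides. The dips were picked out after their values were seen. Casq2, the calsequestrin of slow and cardiac muscle, averaged 9.49 in QSCs, 7.07 at 36 h, 6.61 at 60 h and 9.23 at 84 h. Igfbp5, a secreted IGF-binding protein, averaged 12.38, 11.47, 10.57 and 12.36 over the same groups, and Igf2 averaged 10.43, 9.05, 8.77 and 10.05. The rise over 60 h was called for each of these (2.62, 1.80 and 1.27) and the difference from QSCs was not (−0.26, −0.02 and −0.38). For Casq2 the return to the quiescent level held in the VCAM sort only. In the YFP sort it was called higher at 84 h than in QSCs (difference of response, VCAM minus YFP, −2.47). Mest, an imprinted gene of growing tissue, passed the quiescent level, at 11.70, 10.26, 11.80 and 13.23. Part of the quiescence programme turned the same way without reaching it: Heyl was at 10.82, 7.85, 7.75 and 9.17, Hey1 rose by 0.81 over 60 h, and Meg3 and Rian each rose by 0.85 over 60 h, while none of the 40 microRNAs of the interval was called in that step. Of the lists, 7 of 22 Notch genes and 7 of 28 immediate early genes were higher at 84 h than at 60 h and none was lower.

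**Figure D4:**
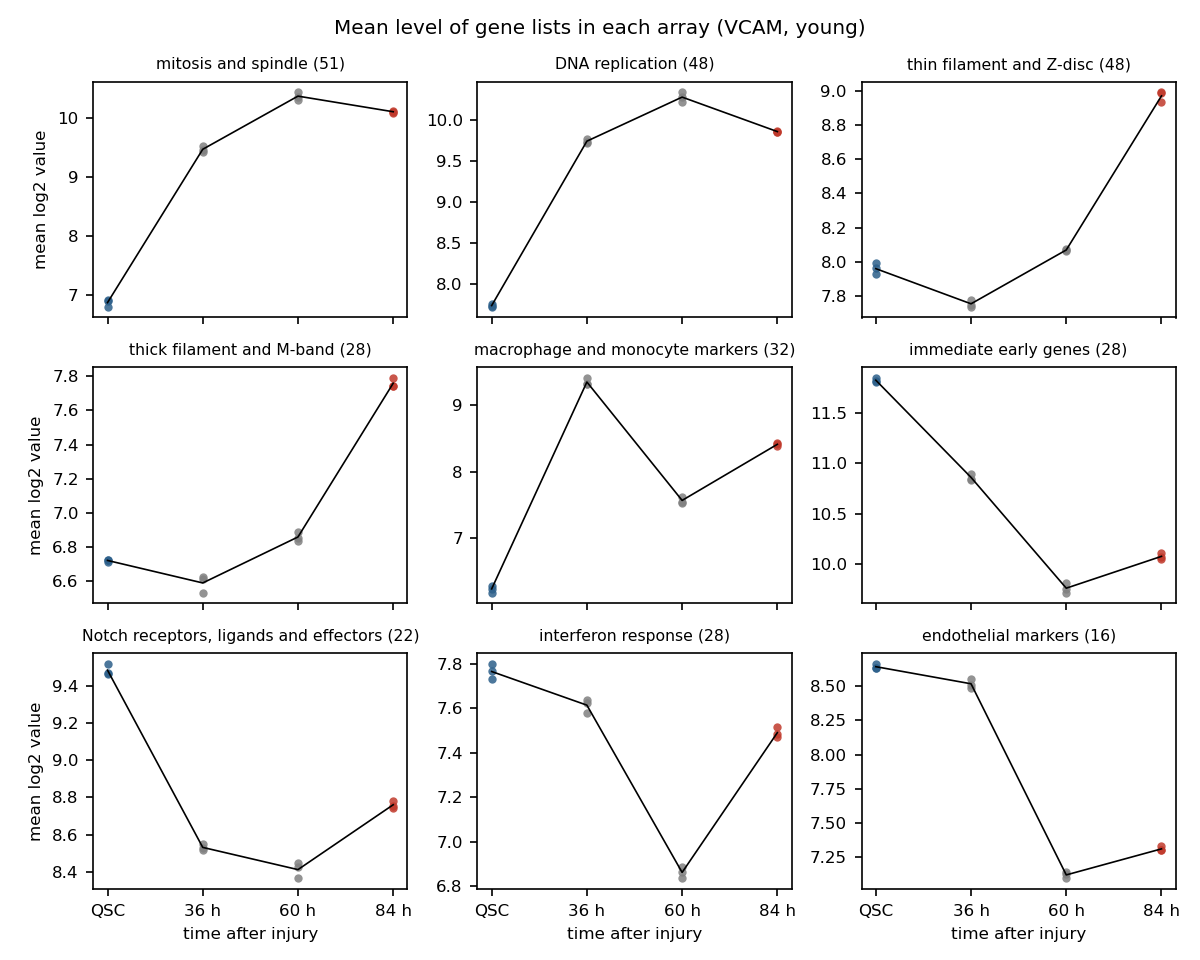
Mean log2 intensity over the genes of 9 lists (vertical axis) on each VCAM array in QSCs and at 36, 60 and 84 h after injury (horizontal axis); points are arrays and lines join the group means. The thick and thin filament lists lie flat or dip until 60 h and stand higher at 84 h, and replication and mitosis lists peak at 60 h.

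Against 36 h, 1163 genes (5.83%) were higher at 84 h and 1284 (6.44%) lower. With each array centred on its median the counts were 1295 and 1209, so which side was larger depended on the scaling. In the thin filament list 28 of 48 genes were higher at 84 h and 1 was lower, and 17 of 28 immediate early genes were lower and none was higher.

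The YFP-sorted cells gave the same comparison on arrays that share none with the VCAM sort. Their QSC arrays stood apart from the other young arrays in Xist, the RNA of the inactive X chromosome, which averaged 5.12 in YFP 84 h ASCs and 11.39 in YFP QSCs, against 5.06 in VCAM 84 h ASCs and 5.34 in VCAM QSCs. The Y-linked gene Uty was present in all 4 groups, at 9.77 in YFP 84 h ASCs, 9.06 in YFP QSCs, 9.41 in VCAM 84 h ASCs and 9.84 in VCAM QSCs. A difference in sex between the YFP groups cannot be told apart from their 84 h response. In YFP 84 h ASCs 3389 genes (17.0%) were higher than in YFP QSCs and 2242 (11.2%) lower. The 2659 genes higher in both sorts were 81.5% of the VCAM list and 78.5% of the YFP list, and the 1678 lower in both were 75.2% of the VCAM list and 74.8% of the YFP list. Another 3 genes were higher in the VCAM sort and lower in the YFP sort, and 3 the reverse. All 32 macrophage markers were higher in YFP 84 h ASCs too, with summed intensities of 29099 to 29390 in YFP 84 h ASCs and 2701 to 2824 in YFP QSCs. Meg3 (−3.77), Dmd (−4.02) and Calcr (−4.62) fell in the YFP sort, 39 of the 40 microRNA genes of the interval fell (Mir666, at −0.55, was not called), and 9 of 10 let-7 and miR-98 genes fell.

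The response itself was tested for a difference between the sorts (VCAM change minus YFP change): 541 genes (2.71%) had a higher and 766 (3.84%) a lower response in the VCAM sort, 6.56% in all. Centring each array on its median turned these to 736 and 569. Ribosome biogenesis had 19 of 34 genes with the higher VCAM response and none with the lower, and its median change was 0.77 in VCAM cells and 0.12 in YFP cells. Each of these 19 had a lower mean in VCAM QSCs than in YFP QSCs, so the quiescent levels entered the difference. Heatr1 averaged 10.46 in VCAM QSCs and 11.19 in YFP QSCs, and 10.96 and 10.88 at 84 h. For Nop16 the means were 9.99 and 10.49 in QSCs, and 10.94 and 10.48 at 84 h. Macrophage markers had 21 of 32 with the lower VCAM response and none with the higher (medians 2.09 in VCAM cells and 2.87 in YFP cells). Interferon genes had 18 of 28 with the lower VCAM response and 1 with the higher, and in YFP cells 15 rose and 3 fell. The part of macrophage RNA in the interferon difference was not tested. Of the contractile lists 5 of 28 thick filament and 7 of 48 thin filament genes had the lower VCAM response, and Casq2 was not called in VCAM cells (−0.26) while it rose in YFP cells (2.21), where the YFP QSC mean was 7.67. The mice of the sorts differ in genotype and tamoxifen treatment as well as in the sort, and these cannot be told apart here.

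**Figure D5:**
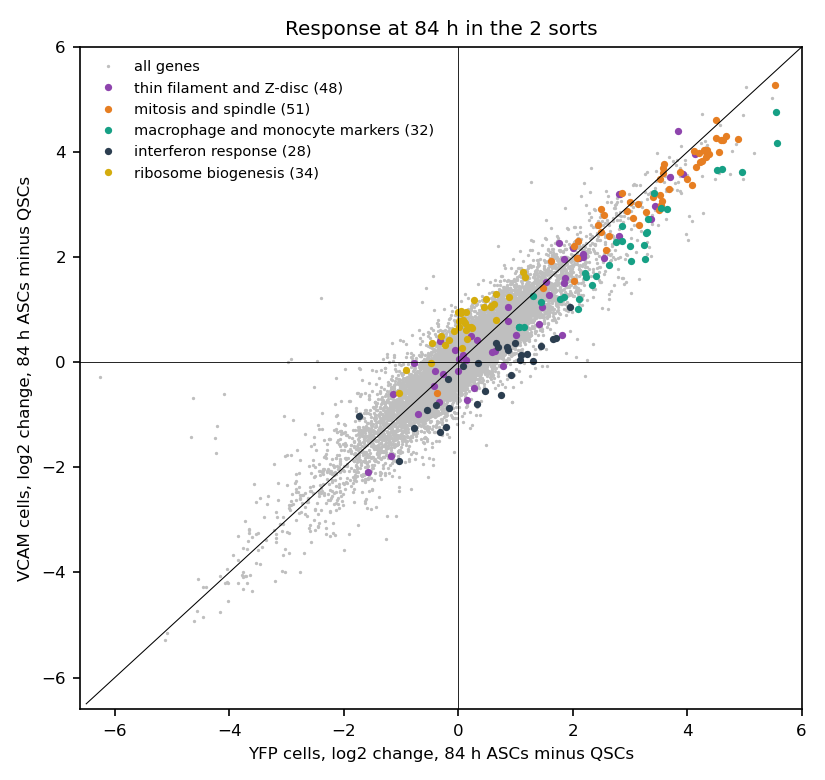
Change from QSCs to 84 h ASCs of each gene on the log2 scale in the VCAM sort (vertical axis) against the YFP sort (horizontal axis), with genes of 5 lists in colour; the diagonal marks equal change. Thin filament and mitosis genes lie along the diagonal, and ribosome biogenesis genes lie above it and macrophage and interferon genes below it.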

How the data were processed

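RNA of sorted mouse hindlimb satellite cells was measured on Affymetrix Mouse Gene ST arrays. The authors summarised the scans with RMA in Affymetrix Expression Console (per the labels) and deposited log2 intensities, already background-corrected and quantile-normalized, so levels are relative within the table. Of 35556 probe sets, 21789 had 1 gene symbol, 1621 several and 12146 none. The brightest probe set stood for each of 19938 genes. Names came from the platform annotation, updated to RefSeq through Entrez identifiers for 21698 probe sets. limma 3.58.1 in R 4.3.3 was fitted to all 30 arrays (10 groups of 3, no covariate). Same-numbered arrays did not deviate together (r = 0.036, 0.121 and −0.010), so numbers were not taken as pairs. On simulated arrays 0, 26, 49 and 50 of 50 genes changed 1.2-, 1.5-, 2- and 4-fold were called.

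The gene lists, motifs and tests were chosen with earlier results of these data known. Named genes were the 12 largest rises and falls, up to 6 members per list with the largest change and members not called, the 10 largest changes from 60 h and the 8 largest differences between sorts in each direction, and genes named by the study or used in the sort. MicroRNAs, the genes of the Dlk1-Dio3 interval, the genes that dipped, and further members of lists (among them Ckm, Dag1, Hes6, Jag1, Mef2a, Mef2c, Musk, Mymx and Sgca) were chosen after their values were seen. Alternatives were other sample sets, scalings, filters, fold thresholds, probe set rules, variance models, a replicate block and leaving out arrays.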

Additional observations from a re-analysis of the deposited data

Results flagged for a closer look

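The 16 genes below had the largest tested differences in the 84 h response between the VCAM and YFP sorts (VCAM change minus YFP change, limma interaction contrast), and they are given as values without an explanation. Among those higher in the VCAM sort, Xist differed by 5.99: it averaged 5.06 in VCAM 84 h ASCs and 5.34 in VCAM QSCs, but 5.12 in YFP 84 h ASCs and 11.39 in YFP QSCs. The Y-linked genes Eif2s3y and Kdm5d averaged 10.60 and 8.97 in YFP 84 h ASCs and 9.59 and 7.65 in YFP QSCs. The remaining 7 also had their highest mean in the YFP QSC group: Akr1c14 (3.96), Tmem45a (3.62), F630111L10Rik (3.49), P2ry14 (3.25), Neu2 (3.01), Gria1 (2.99) and Grin2a (2.98). For P2ry14 the means were 6.63 in VCAM 84 h ASCs and 8.05 in VCAM QSCs, and 7.07 in YFP 84 h ASCs and 11.74 in YFP QSCs.

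Among those lower in the VCAM sort, Casq2 differed by −2.47, with 9.23 in VCAM 84 h ASCs and 9.49 in VCAM QSCs, and 9.88 in YFP 84 h ASCs and 7.67 in YFP QSCs. Ifi202b of the interferon response differed by −2.02, with 4.46 in VCAM 84 h ASCs and 4.13 in VCAM QSCs, and 6.77 in YFP 84 h ASCs and 4.41 in YFP QSCs. Hpse (−2.20) and Inpp4b (−1.95) were likewise higher in YFP 84 h ASCs than in YFP QSCs and were not called in the VCAM sort. Abcc9 (−2.09), a pericyte marker, and Art3 (−1.84) fell in both sorts and further in VCAM cells: Abcc9 averaged 7.51 in VCAM 84 h ASCs and 10.87 in VCAM QSCs, and 7.82 in YFP 84 h ASCs and 9.09 in YFP QSCs. The chemokine gene Cxcl13 (−2.06) fell in VCAM cells and was not called in YFP cells, and Apobec1 (−1.71) fell in VCAM cells and rose in YFP cells.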

How the results depend on the processing

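Counts are given as higher and then lower. Without a fold threshold 84 h ASCs against QSCs gave 6061 and 6057 genes, and at a fold of 2 it gave 1740 and 1130. The step from 60 h gave 2920 and 2668 without a threshold and 204 and 9 at a fold of 2, that from 36 h 4960 and 3820, and 302 and 588, the YFP sort 5999 and 6798, and 1843 and 1153, and the difference between sorts 2697 and 2773, and 107 and 143. Over all lists 396 members were higher and 199 lower at a fold of 2. Median centring gave 277 lower genes against 60 h (504 higher). In the YFP sort it gave 3106 and 2560, with a shift of −0.142 in the median. Quantile normalization of the table again gave 2845 and 2579 for 84 h ASCs against QSCs, and under it Cacna1s (0.59) was called higher and Dlk1 (−0.60) lower.

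Leaving out 1 array in turn gave 3168 to 3322 higher and 2206 to 2268 lower genes for 84 h ASCs against QSCs. The ranges were 627 to 689 and 123 to 189 against 60 h, 1105 to 1269 and 1256 to 1324 against 36 h, 3302 to 3517 and 2219 to 2329 in the YFP sort, and 488 to 617 and 710 to 864 for the difference. With the replicate number as a block (replicate block) 84 h ASCs against QSCs gave 3262 and 2232 genes, and the block moved no count past 1.5 times. Of 1401 genes followed, 41 lost and 20 gained a call under some alternative scaling, filter, sample set or model, 34 lost and 23 gained one on leaving out an array, and none reversed. None of the 12 largest rises and 12 largest falls lost its call. Of 116 list counts, 4 moved by over 1.5 times under quantile normalization, 2 with genes of a mean of at least 7, 45 without a fold threshold and 37 at a fold of 2. With 3 arrays a group and no detection call, small folds of dim genes are the least certain values here.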

Other observations

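Several further groups had calls between 84 h ASCs and QSCs, against shares over all genes of 16.4% higher and 11.2% lower. The rises of ion channel and imprinted genes below, and the falls of tendon markers, lie near these shares. Ion channel genes, which set the membrane potential of the cell, had 3 of 20 higher and 7 lower. The calcium-activated potassium channel gene Kcnma1 was 7.30, 7.16 and 7.17 in 84 h ASCs, against 10.17, 10.20 and 10.13 in QSCs (−2.95), and Kcnn3 (−2.64), Kcnj8 (−2.40) and Trpc1 (−2.02) fell. The pump subunit gene Atp1b1 was 10.11, 10.07 and 10.07 in 84 h ASCs, against 7.30, 7.32 and 7.53 in QSCs (2.70). Kcnj8 is a pericyte marker as well. The summed pericyte intensity was 11565 to 11974 in 84 h ASCs and 22973 to 24008 in QSCs, and the part of pericytes in these falls was not tested.

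Of 30 integrin and adhesion genes 9 rose and 7 fell, with Itga3 (2.15) and Itga4 (1.58) higher and Itga1 (−2.05) and Sdc4 (−1.44) lower. None of 37 Hox genes rose and 9 fell, led by Hoxc8 (−1.42), Hoxc6 (−0.95) and Hoxc9 (−0.86), while YFP cells had 1 higher and 3 lower. Of 18 imprinted genes 3 rose and 7 fell: the rises were Cdkn1c, Mest and Peg10 (0.72), and Plagl1 (−1.39), Sgce (−0.92) and Peg3 (−0.90) were among the falls. Tendon markers had 3 of 10 higher and 1 lower, with Scx at 1.17, and their summed linear intensity was 7685 to 8012 in 84 h ASCs and 5672 to 5986 in QSCs.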
